A study of Mus musculus with 8 samples.

Results

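A set of 7 genes that mark nephron progenitors were followed through 8 RNA-Seq libraries of mouse kidney tubuloids, namely Six2, Cited1, Eya1, Osr1, Sall1, Meox1 and Crym. They were taken by symbol from the deposited transcript tables, and all 7 were found among the 24063 genes of those tables. Tubuloids are tubule and spheroid structures that grow in Matrigel from collagenase-digested fragments of postnatal kidney. Of the libraries, 4 came from cultures given doxycycline (DOX) and 4 from cultures given the vehicle dimethyl sulfoxide (DMSO), and the comparison asked how expression changed after Pkd2 was inactivated in grown tubuloids. Both groups had the genotype Pkd2fl/fl Pax8rtTA TetOCre mTmG, so the DMSO cultures also carried 2 floxed alleles of Pkd2, the doxycycline-responsive transactivator, the Cre transgene and the membrane reporter that turns from red to green after recombination. The kidneys were of postnatal day 7 to day 10 according to the sample descriptions, whereas the study's methods gave a younger range. In the study's culture protocol, fragments were plated in medium with glial-derived neurotrophic factor (GDNF), and later medium lacked it. Hepatocyte, epidermal and basic fibroblast growth factors were in the medium throughout. The agents were added on day 3 of culture and left for 3 days, and the structures were taken for RNA on day 7. The transactivator was under the Pax8 promoter, which is active in renal epithelium, so Cre could act only in Pax8-expressing cells, while RNA was taken from whole recovered cultures in which unrecombined cells remained. The sources did not state whether the 4 cultures of a group came from separate animals, and p-values therefore measure only the spread between these libraries.

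Nephron progenitors are the cap mesenchyme cells that surround each tip of the branching ureteric bud. Signals from the bud, Wnt9b among them, both renew these cells and induce some of them to condense, become epithelial and form nephrons. In the mouse the pool is used up soon after birth. Within it, Osr1, a zinc finger factor of the intermediate mesoderm, acts early, and Eya1, a coactivator and phosphatase that works with Six2 and its relatives, acts upstream of Six2. Six2 is the homeodomain factor that holds progenitors in the undifferentiated state, and Sall1 is a zinc finger factor that shares many target sites with it. Cited1, a transcriptional coregulator, marks the least induced progenitors. Meox1, a homeodomain factor, and Crym, a thyroid hormone binding protein, are used as markers of these cells.

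Of the 7 genes, 3 had an entry in the promoter sequences of RefSeq used here (GRCm38.p6, the assembly also called mm10), Six2, Sall1 and Cited1. The 250 bases before the start of each are shown 5′ to 3′ on the strand of the gene so that the 3 members can be compared in base composition and promoter motifs. They lie at chr17:85688255-85688504, chr8:89044163-89044412 and chrX:102252182-102252431, each on the minus strand. Capitals mark matches to the motifs searched on both strands, a TATA box, a CCAAT box and the MEF3-type motif that Six2 relatives can bind.

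Six2: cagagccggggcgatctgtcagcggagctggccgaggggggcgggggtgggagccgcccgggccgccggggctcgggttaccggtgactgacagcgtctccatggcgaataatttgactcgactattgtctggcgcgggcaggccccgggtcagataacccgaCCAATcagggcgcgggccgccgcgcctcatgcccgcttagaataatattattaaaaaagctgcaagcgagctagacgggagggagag
Sall1: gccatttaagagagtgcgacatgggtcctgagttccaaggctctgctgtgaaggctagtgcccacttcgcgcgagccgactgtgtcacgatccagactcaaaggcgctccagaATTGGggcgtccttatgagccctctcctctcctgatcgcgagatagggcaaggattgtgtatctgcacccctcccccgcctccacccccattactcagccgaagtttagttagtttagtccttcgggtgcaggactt
Cited1: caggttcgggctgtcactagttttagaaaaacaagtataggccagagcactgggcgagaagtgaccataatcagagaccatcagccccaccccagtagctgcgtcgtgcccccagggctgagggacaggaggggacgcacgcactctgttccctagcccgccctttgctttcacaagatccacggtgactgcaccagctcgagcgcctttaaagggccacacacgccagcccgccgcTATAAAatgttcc

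The Six2 stretch held 26 CpG dinucleotides, more than 90.8% of the 27025 promoters of the same length, whose median was 6. The Sall1 and Cited1 stretches held 13 each, more than 68.2% of promoters. With positions counted back from the base before the start, which is -1, the first base of the CCAAT box (letters CCAAT) stood at -87 in Six2 and, on the opposite strand and so read as ATTGG, at -137 in Sall1, and 34.5% of promoters held this motif. The TATA box (letters TATAAA) stood at -13 in Cited1 and was held by 13% of promoters. The MEF3-type motif (letters TCAGGTT), held by 3.49% of promoters, was not in these 3 windows. The letters searched do not contain each other, and no match overlapped another. A match of letters is a description of the sequence and not a binding site.

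Total transcript counts ranged from 63922677 to 102716313 per library. Fewer genes were detected in DMSO 20 (13243) and DOX 19 (13599) than in the other 6 libraries (17054 to 17903). Xist and 4 Y-linked genes (Ddx3y, Eif2s3y, Kdm5d and Uty) showed 2 libraries to be male, DMSO 15 and DOX 21, with the other 6 female. The normalised count of Pkd2, the targeted gene, averaged 6130 ± 1114 over DMSO and 4946 ± 772 over DOX libraries (SD, n = 4 each), and the groups overlapped (DESeq2 adjusted p = 0.999). The paper reported less polycystin-2 protein, the product of Pkd2, in doxycycline-treated tubuloids, which these RNA counts do not measure. Each group thus held 1 library of low gene detection and 1 male library, and values are given with and without them where a result rests on them.

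Sall1, Eya1 and Six2 were counted in every library. Cited1, Osr1 and Meox1 were counted in 6 libraries and Crym in 5. In TPM, a level that is scaled to transcript length and library total and was summed over the transcripts of a gene, Sall1 was the highest (15.6 ± 8.13, SD over 8 libraries) and Crym the lowest (0.159 ± 0.251). Sall1 lay above 63.6% of the 19634 genes with at least 1 count, and Six2 above 41%. No member passed the test between DOX and DMSO.

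Sall1 (Entrez 58198, chr8:89027242-89044162) stood at 11.7, 19.3, 6.23 and 22.0 TPM in DMSO 3, 5, 15 and 20, and at 8.49, 28.9, 20.5 and 8.17 TPM in DOX 9, 12, 19 and 21. DOX 12 was the highest and DMSO 15 the lowest, with a range of 4.63-fold, and both treatments were represented at each end. Six2 (Entrez 20472, chr17:85662736-85688254) stood at 2.61, 5.23, 0.170 and 5.99 TPM in DMSO 3, 5, 15 and 20, and at 2.07, 7.46, 2.21 and 0.395 TPM in DOX 9, 12, 19 and 21. DOX 12 was again the highest and DMSO 15 the lowest, and the range was 43.8-fold. The low values of Six2 rested on 17 counts in DMSO 15 and 33 counts in DOX 21, against 177 to 764 counts in the other 6 libraries.

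Eya1 (Entrez 14048, chr1:14168953-14311035) stood at 1.71, 6.77, 3.33 and 21.9 TPM in DMSO 3, 5, 15 and 20, and at 3.06, 8.63, 9.85 and 8.37 TPM in DOX 9, 12, 19 and 21. It was highest in the 2 libraries of low gene detection, DMSO 20 and DOX 19. Cited1 (Entrez 12705, chrX:102247378-102252181) stood at 10.6, 29.6, 2.58 and 0 TPM in DMSO 3, 5, 15 and 20, and at 2.53, 19.7, 0 and 2.72 TPM in DOX 9, 12, 19 and 21. It was high in DMSO 3, DMSO 5 and DOX 12, between 2.53 and 2.72 in 3 libraries and without a count in DMSO 20 and DOX 19. A count of 0 allows up to 3 counts (counting error only). In the shortest single transcript of Cited1, 3 counts are 0.127 TPM in DMSO 20 and 0.102 TPM in DOX 19. The bound on the summed level is higher, since a read shared by isoforms is counted in each of them.

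Osr1 (Entrez 23967, chr12:9574442-9581500) stood at 0.610, 0.595, 6.67 and 0 TPM in DMSO 3, 5, 15 and 20, and at 0.425, 0.910, 0 and 0.514 TPM in DOX 9, 12, 19 and 21. DMSO 15 stood alone, since no other library reached 1 TPM. Meox1 (Entrez 17285, chr11:101877510-101894354) stood at 0.825, 1.48, 0.689 and 0 TPM in DMSO 3, 5, 15 and 20, and at 1.57, 1.74, 0 and 0.468 TPM in DOX 9, 12, 19 and 21. Its 6 values above 0 spanned 3.72-fold. Crym (Entrez 12971, chr7:120186380-120201989) was close to absent. It had 35 counts in DMSO 5, 7 to 9 counts in DMSO 3, DOX 9, DOX 12 and DOX 21, and 0 counts in the other 3 libraries.

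**Figure D1:**
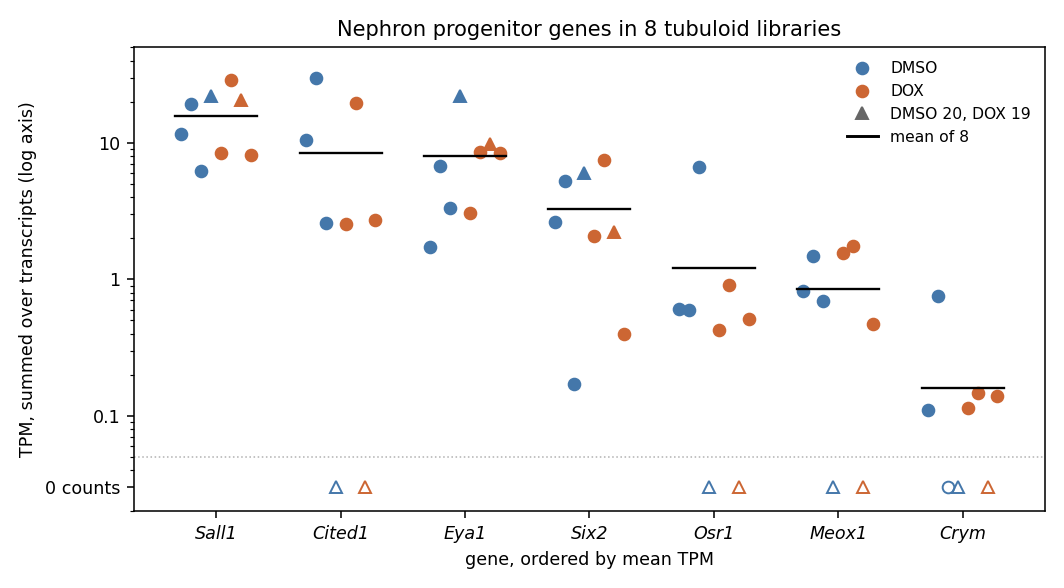
Level of each nephron progenitor gene in TPM, summed over its transcripts, on a log axis, with DMSO libraries in blue, DOX libraries in orange, triangles for DMSO 20 and DOX 19, open symbols for 0 counts and a bar at the mean of 8 libraries. Blue and orange points are mixed for each gene, Sall1 has a mean of 15.6 TPM and Crym of 0.159 TPM, and the 4 genes with open symbols lack counts in both libraries drawn as triangles.

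The order of the genes depended on how transcripts were added. The deposited tables hold 4 transcripts of Cited1 with nearly the same counts in each library (124, 124, 124 and 127 in DMSO 3) and 2 of Eya1 (181 and 189 in DMSO 3), so a read shared by isoforms appears in each of them and the summed levels of these 2 genes are too high. By the sum, the mean levels were 15.6 TPM for Sall1, 8.46 for Cited1, 7.96 for Eya1, 3.27 for Six2, 1.22 for Osr1, 0.846 for Meox1 and 0.159 for Crym. In that order no gene passed the test against its neighbour after adjustment over the 6 neighbouring pairs (exact two-sided sign-flip test of log2(TPM + 0.1) over 8 libraries, smallest adjusted p = 0.0938). With 1 transcript per gene, Eya1 fell to 3.96 TPM and Cited1 to 1.80 TPM, and the order became Sall1, Eya1, Six2, Cited1, Osr1, Meox1 and Crym. In that order Sall1 lay above Eya1 in 8 of 8 libraries, by 2.13 ± 0.884 on the log2 scale (SD), with an exact sign-flip p of 0.00781, the smallest that 8 libraries can give, and an adjusted p of 0.0469. The other neighbouring pairs did not pass after adjustment, among them Meox1 and Crym, which differed by 1.64 ± 1.28 on the log2 scale (SD; exact sign-flip p = 0.0313, adjusted p = 0.0938). Eya1 lay above Six2 in 4 of 8 libraries, and Osr1 above Meox1 in 2 of 8.

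DOX and DMSO were compared on counts with DESeq2 across all genes, with a call requiring both a 1.5-fold change and an adjusted p no higher than 0.05. None of the 7 members was called, against 0.147% of the 17011 genes with an adjusted p. None reached an unadjusted p under 0.05, against 4.67% of 19268 genes, and in none did the DOX libraries lie wholly on one side of the DMSO libraries, against 2.45% of those genes. The quasi-likelihood test of edgeR, which kept 6 of the members, called 0% of 15562 genes, had 476 genes at an unadjusted p under 0.05 and none of the members among them. The adjusted p was 0.999 for each member in DESeq2 and for each of the 6 kept members in edgeR. There were 5 members with a negative and 2 with a positive log2 fold change, with a median of -0.29 over the members and of -0.07 over all genes tested. In these bulk samples, fewer cells of a type and less RNA per cell cannot be told apart.

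Sall1 gave the narrowest estimate. Its normalised counts, which are corrected for library size only, were 2890, 3749, 1555 and 4505 in DMSO 3, 5, 15 and 20, and 1863, 5244, 4612 and 1790 in DOX 9, 12, 19 and 21. The groups overlapped almost fully, with means of 3175 ± 1265 and 3377 ± 1809 (SD, n = 4 each; exact permutation p = 0.83). The log2 fold change was 0.09 (SE 0.501, 95% interval -0.89 to 1.07), so the data leave room for a DOX level of 0.539 to 2.10 times that of DMSO.

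Six2 had normalised counts of 259, 408, 17.1 and 493 in DMSO 3, 5, 15 and 20, and of 183, 543, 200 and 34.6 in DOX 9, 12, 19 and 21. Each group held 1 very low library. The log2 fold change was -0.29 (SE 0.991, 95% interval -2.24 to 1.65; exact permutation p = 0.743 for the group means, n = 4 each), and it was 0.18 without DMSO 20 and DOX 19. A change of 3-fold in either direction therefore lay within the interval, whose ends were 0.212 and 3.14 times the DMSO level.

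Eya1 had normalised counts of 344, 1071, 675 and 3654 in DMSO 3, 5, 15 and 20, and of 546, 1275, 1800 and 1490 in DOX 9, 12, 19 and 21. The single value of DMSO 20 lay above the other 7 libraries. The log2 fold change was -0.17 (SE 0.727), whereas it was 0.87 without DMSO 20 and 0.68 without DMSO 20 and DOX 19. The DESeq2 adjusted p without these libraries was 0.818 and 0.908.

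Cited1 had normalised counts of 464, 1025, 114 and 0 in DMSO 3, 5, 15 and 20, and of 98.5, 634, 0 and 106 in DOX 9, 12, 19 and 21. Both groups ran from 0 to 634 or more. Its log2 fold change was -0.93 (SE 1.83) and -0.91 without DMSO 20 and DOX 19, and it was 0.12 without DMSO 5, the library with the most Cited1.

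Osr1 had the most negative fold change of the 7 members, -2.38 on the log2 scale (SE 1.77, 95% interval -5.86 to 1.10; DESeq2 adjusted p = 0.999). Its normalised counts were 57.7, 44.3, 637 and 0 in DMSO 3, 5, 15 and 20, and 35.7, 63.3, 0 and 43.0 in DOX 9, 12, 19 and 21. Outside DMSO 15 no library exceeded 63.3, and without DMSO 15 the log2 fold change was 0.07. Without DMSO 20 and DOX 19, where DESeq2 gave no p for Osr1, edgeR gave a log2 fold change of -2.41 (unadjusted p = 0.0618, adjusted p = 0.911). DMSO 15 also had the highest summed level of 9 stromal markers, 2157 TPM against 322 to 895 TPM in the other 7 libraries. Of the 9, 5 were highest there (Col1a1, Col3a1, Dcn, Lum and Foxd1) and 4 were not (Tcf21, Pdgfra, Pdgfrb and Meis1), and the part of stromal cells in the Osr1 level was not tested.

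Meox1 and Crym gave wide intervals. The log2 fold change of Meox1 was 0.20 (SE 1.67), with normalised counts of 0 to 121 in DMSO and 0 to 144 in DOX (exact permutation p = 0.886, n = 4 each). That of Crym was -1.08 (SE 2.25), with 0 to 35.3 and 0 to 7.35 (exact permutation p = 0.8), and became 1.17 without DMSO 5. On its 0 to 35 counts, the 95% interval of Crym ran from -5.50 to 3.33 on the log2 scale.

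**Figure D2:**
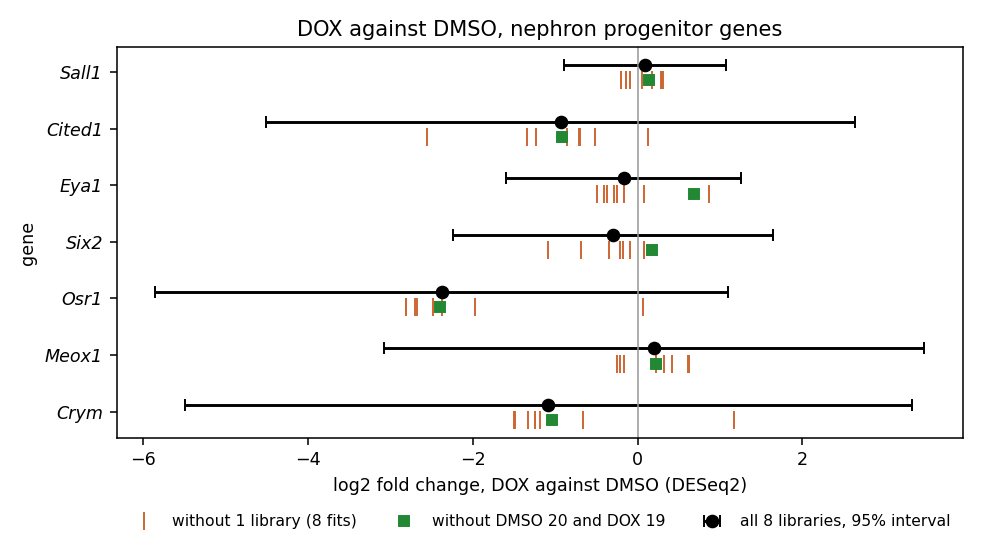
Log2 fold change of each gene, DOX against DMSO, from DESeq2, with the 95% interval over all 8 libraries in black, the 8 fits that leave out 1 library as orange ticks and the fit without DMSO 20 and DOX 19 as a green square. Each black interval crosses 0, Sall1 has the narrowest (-0.89 to 1.07), and the lone tick of Osr1 near 0 is the fit without DMSO 15 (0.07).

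On the deposited TPM no member passed the test either. The mean difference of log2(TPM + 0.1), DOX minus DMSO, ran from -0.84 for Osr1 to 0.33 for Eya1, and the exact two-sided permutation p of the 7 genes ran from 0.571 to 1. With 4 libraries against 4, that test can give a p no smaller than 0.0286. Eya1 is thus the 1 member whose difference had opposite signs in the 2 comparisons, -0.17 in DESeq2 on counts and 0.33 for the mean log2 TPM. Its plain mean TPM was lower in DOX (7.48) than in DMSO (8.43), whereas limma-voom on counts gave 0.34. The sign therefore did not follow counts against TPM alone.

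The members varied widely between libraries of the same treatment. Cited1, Osr1, Meox1 and Crym had 0 counts in both DMSO 20 and DOX 19. Of the 15695 genes counted in each of the other 6 libraries, 10.4% had 0 counts in both, while 3 of the 6 members with that property did. Of the 13260 genes with a mean normalised count of at least 100 in those 6 libraries, 4.46% had 0 counts in both, while 2 of 5 members did, Cited1 and Osr1. Osr1 met that minimum through DMSO 15, with a mean of 147 over the 6 libraries and 48.8 without DMSO 15, whereas Meox1, also at 0 in both, had 99.9 with it and 105 without it. These 2 libraries had the fewest genes detected, and the part of that in the zeros was not tested. Six2, Sall1 and Eya1 were not low there. Six2 had 493 and 200 normalised counts in DMSO 20 and DOX 19, Sall1 had 4505 and 4612, and Eya1 had its 2 highest values, 3654 and 1800.

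The male libraries, DMSO 15 and DOX 21, were lowest for Six2 and for Sall1. Six2 had 17.1 and 34.6 normalised counts in them, against 183 to 543 in the 6 female libraries. Sall1 had 1555 and 1790, against 1863 to 5244. For the other 5 members the male and female ranges overlapped or only 1 male library stood apart, and Cited1, for example, had 114 and 106 in the males and 0 to 1025 in the females. This was seen after the levels were known, with 2 male libraries and no label of sex, and it was not tested. The same 2 libraries also had the lowest summed levels of 5 epithelial markers, 436 and 532 TPM against 803 to 1757 TPM in the other 6, and of 14 genes of committed nephron precursors, 146 and 177 TPM against 304 to 505 TPM. With library sex as a covariate in DESeq2, the log2 fold change between DOX and DMSO was -0.02 for Six2 and 0.11 for Sall1.

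**Figure D3:**
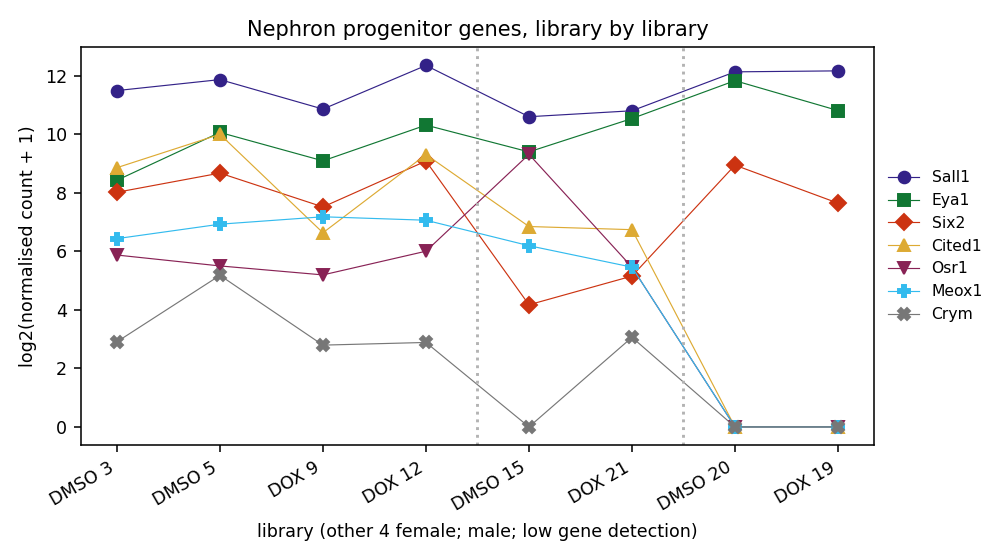
Normalised count of each gene on the scale log2(count + 1), with libraries ordered as the other 4 female libraries, the 2 male libraries (DMSO 15 and DOX 21) and the 2 libraries of low gene detection (DMSO 20 and DOX 19). Six2 dips to 17.1 and 34.6 normalised counts in the male libraries, Osr1 peaks at 637 in DMSO 15, and Cited1, Osr1, Meox1 and Crym drop to 0 in the last 2 libraries while Sall1, Eya1 and Six2 do not.

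Pairs of members were compared over libraries on log2(normalised count + 1), as a description without a test, since all points share library and depth. Six2 and Sall1 varied together both in all 8 libraries (r = 0.845) and in the 6 without DMSO 20 and DOX 19 (r = 0.871). Over the 6 female libraries, chosen after the values were seen, their r was 0.670. Cited1 and Sall1 had an r of -0.27 over 8 libraries and of 0.908 over 6, and Cited1 and Six2 had -0.05 and 0.792. Over the 6 female libraries, which include DMSO 20 and DOX 19, these values were -0.28 and 0.182. Cited1 and Meox1 had an r of 0.958 over 8 libraries, where both are 0 in 2 of them, and of 0.461 over 6.

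The 2 genes whose profile was most like each member were sought among 15928 genes with a mean normalised count of at least 10. For Six2 they were Col25a1, which encodes a transmembrane collagen (r = 0.963 over 8 libraries and 0.986 over 6), and Tsix, the RNA antisense to Xist (0.960 and 0.982), whose reads cannot be told from those of Xist in unstranded libraries. Without the male libraries DMSO 15 and DOX 21, in which Xist had 0 and 4 counts, the r with Six2 was 0.906 for Col25a1 and 0.510 for Tsix. For Sall1 they were Robo1, which encodes a receptor for Slit guidance proteins (0.971 and 0.960), and Scrn1 (0.957 and 0.950). For Eya1 they were Jmjd1c (0.970 and 0.934) and Spry1, an inhibitor of receptor tyrosine kinase signalling (0.961 and 0.986). For Cited1 they were Smim24 (0.997 and 0.977) and H2-DMb2 (0.995 and 0.952), for Osr1 Fam150a (0.997 and 0.985) and Gm11627 (0.996 and 0.986), and for Meox1 I830012O16Rik (0.997 and 0.969) and Agbl2 (0.997 and 0.904). The 6 genes found for Cited1, Osr1 and Meox1 had 0 counts in DMSO 20 and DOX 19, as those members did. Without these libraries, Osr1 stood at 637 normalised counts in DMSO 15 and at 35.7 to 63.3 in the rest, so its second r leans on DMSO 15. The libraries of each second r are also among the 8 by which the genes were chosen. Crym was too low to be compared.

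Other genes of the cap mesenchyme were read from a list of 18. None was called and none had an unadjusted DESeq2 p under 0.05, 11 of the 17 tested had a positive and 6 a negative log2 fold change, and the median was 0.11. The summed level was 410 to 874 TPM in DMSO and 560 to 914 TPM in DOX. The highest were Cdh11, a mesenchymal cadherin, at 228 ± 115 TPM in DMSO and 266 ± 39.7 in DOX, and Itga8, the integrin subunit by which the mesenchyme sustains Gdnf, at 72.9 ± 64.2 and 145 ± 61.9 (SD, n = 4 each). For Itga8 the log2 fold change was 0.94 with an SE of 0.563 and an adjusted p of 0.999. Both lay far above the 7 members, whose highest mean was 15.6 TPM, and both are also made by other mesenchymal cells. Fgf20, a growth factor of the progenitors, had 0 counts in all 8 libraries.

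Family relatives of the members were read from a list of 15. None was called and none had an unadjusted p under 0.05, 4 of the 14 tested had a positive and 10 a negative log2 fold change, and the median was -0.17. Cited2, a widely expressed relative of Cited1, averaged 65.7 TPM over 8 libraries with a log2 fold change of -0.0036 (SE 0.389). Eya2 averaged 53.5 TPM with -0.36 (SE 0.704). By the mean over 8 libraries these relatives lay well above the member of their own family, with Cited1 at 8.46 and Eya1 at 7.96 TPM by the sum. In DMSO 20, however, Eya1 (21.9 TPM by the sum) lay above Eya2 (18.3 TPM). Six6 had 0 counts in all 8 libraries.

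Genes of committed nephron precursors, the stage that follows induction of progenitors, were read from a list of 14. None was called and none had an unadjusted p under 0.05, 5 had a positive and 9 a negative log2 fold change, and the median was -0.20. Pax8, a paired-box factor of the renal epithelial lineage, averaged 64.2 TPM with a log2 fold change of -0.0023 (SE 0.427). Summed over the list, DMSO libraries held 146 to 505 TPM and DOX libraries 177 to 491 TPM.

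**Figure D4:**
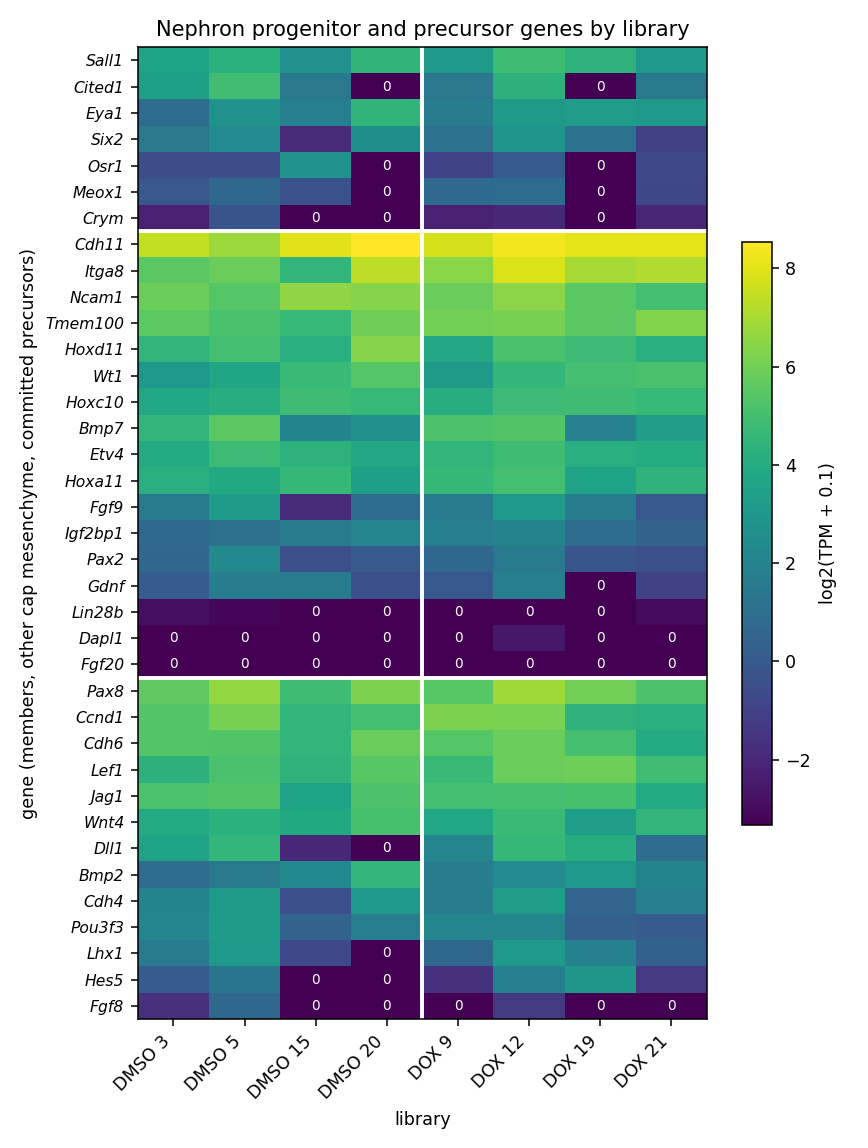
Level of each gene in each library as log2(TPM + 0.1), with the 7 nephron progenitor genes at the top, other cap mesenchyme genes in the middle and committed precursor genes at the bottom (the genes of the lists reported here), DMSO libraries left and DOX libraries right of the white line, and 0 written where no read was counted. Cdh11 and Itga8 are the brightest cap mesenchyme rows, Fgf20 is 0 in all 8 libraries, and zeros of the top block lie in DMSO 20, DOX 19 and, for Crym, DMSO 15.

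Markers of other cell types were read beside the members. In the stroma list, Col1a1, a fibrillar collagen, was 1 of 9 genes at an unadjusted DESeq2 p under 0.05 (log2 fold change -1.85, SE 0.871, adjusted p = 0.873), with 178, 37.1, 732 and 60.2 TPM in DMSO 3, 5, 15 and 20 and 59.2 to 136 TPM in DOX. DMSO 15 stood apart for it as it did for Osr1. Foxd1, which defines the stromal progenitors next to the cap, was at 14.4 TPM in DMSO 15 and at 1.31 to 9.15 TPM elsewhere. Col3a1, Dcn and Lum were also highest in DMSO 15. The remaining 4 markers were not, since in DMSO 15 Tcf21 was at 27.4 TPM against 20.2 to 134 TPM in the other 7 libraries, Pdgfra at 12.2 against 0.149 to 37.2 TPM, Pdgfrb at 163 against 78.8 to 313 TPM and Meis1 at 26.1 against 18.6 to 42.0 TPM. Col3a1 and Pdgfrb, the highest of the list, averaged 287 and 195 TPM, and no stromal marker was called.

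Of the 7 genes of the ureteric tip, the source of the inducing signals, none was called. Ret, the receptor for Gdnf, had the 1 unadjusted p under 0.05 (log2 fold change -1.55, SE 0.748, DESeq2 adjusted p = 0.885), with 7.70 ± 6.28 TPM in DMSO and 2.80 ± 2.90 TPM in DOX (SD, n = 4 each). Gfra1, its coreceptor, averaged 145 TPM and Etv5, a factor induced by Ret signalling, 37.8 TPM. Epithelial markers were high in each library, from 436 to 1757 TPM in sum in DMSO and 532 to 1171 TPM in DOX, led by Krt18 (371 TPM) and Krt8 (293 TPM), keratins of simple epithelium, and all 5 had a negative log2 fold change without a call.

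Markers of the proximal tubule and the loop of Henle were low. The 3 proximal tubule genes summed to at most 0.205 TPM, led by Cubn (0.1 TPM) and Lrp2 (0.0174 TPM), and the 2 genes of the loop of Henle to at most 12.4 TPM, led by Umod (3.46 TPM) and Slc12a1 (0.635 TPM). Podocyte markers summed to 17.9 to 218 TPM, with the most in DOX 21, and Synpo averaged 25.8 TPM. Of the endothelial list Emcn averaged 69.8 TPM while the defining Pecam1, Kdr and Cdh5 averaged at most 0.226 TPM. The macrophage list summed to at most 22.4 TPM, led by Ptprc (5.38 TPM) and C1qa (0.281 TPM). Of the muscle list Des averaged 67.2 TPM and the myogenic factors Myod1, Myf5, Myog and Pax7 had 0 counts in all 8 libraries; Meox1 is also made in somites, where muscle arises. No gene of these lists was called, and DESeq2 gave no p for some of them, Podxl and C1qa included, in which its filter on single outlying libraries applied.

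Some limits concern single members. On the reference annotation Osr1 overlaps 1700022H16Rik on the opposite strand, which had at most 2 counts in any library, and Meox1 overlaps the antisense gene Gm11551, which is not in the count table. Eya1 overlaps Gm37444 on its own strand and the miRNA gene Gm22616 on the other, neither in the count table. The library kit does not mark strand, so reads from such partners cannot be told apart. The members with libraries at 0 had a wide spread, since the DESeq2 dispersion exceeded that of 82.9% of genes for Crym, 79.3% for Cited1, 78% for Osr1 and 74.2% for Meox1, against 44% for Sall1.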

How the data were processed

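RNA of 8 tubuloid cultures was made into poly-A selected SMART-Seq v4 libraries and sequenced as paired ends by the authors. STAR, featureCounts and DESeq2 are named in the submitters' processing notes, with versions not given in the sources used here. The authors deposited a count of reads for each RefSeq transcript of mm10 (GRCm38), as whole numbers. The TPM was computed by the authors from these counts and transcript lengths, and the deposited FPKM was used only to read off transcript lengths. Counts and TPM were summed by symbol. No 2 libraries agreed within sampling noise.

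For DOX against DMSO, DESeq2 1.42.0 (Wald test, R 4.3.3), the tool of the study, was run with median-of-ratios size factors, Cook's filter, independent filtering at alpha 0.1 and Benjamini-Hochberg adjustment over all genes. edgeR 4.0.16 (quasi-likelihood) stands beside it, and limma 3.58.1 (voom) is an alternative. All 3 were also run on simulated counts without libraries of low gene detection, which is a check of the code and not of the results here. Single values were compared by exact two-sided permutation over 70 assignments of libraries, and neighbouring levels by exact sign flips (scipy 1.17.1). The genes named are the 7 members, Pkd2, the 2 genes of highest mean TPM and any gene at an unadjusted p under 0.05 in each list, and the 2 genes of most like profile. Some genes of the lists count in the totals but are not reported here. Further genes were named after their values were seen, as defining markers or as counts of 1. The lists cover cap mesenchyme, family relatives, committed precursors, stroma, ureteric tip, epithelium, podocyte, proximal tubule, loop of Henle, endothelium, macrophage (Adgre1 appears under its older symbol Emr1) and muscle. Members and lists were chosen with earlier results of these data known. Library numbers are not shared between groups, so nothing was paired. The libraries ran on 2 lanes, and the sources used here do not give the lane of each, so lane and treatment cannot be told apart. Alternatives were other tools, size factors, filters, covariates, thresholds and pseudocounts, 1 transcript per gene, and leaving out libraries.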

Additional observations from a re-analysis of the deposited data

Results flagged for a closer look

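Among 14 groups of 4 libraries (7 genes in 2 groups), 3 had a library far from the other 3 on log2(normalised count + 1). Each was a library of low gene detection with 0 counts. For independent, normally spread values about 1 in 20, or 0.7 groups, would be flagged. The 14 groups share their libraries and the flagged values are zeros, so this rate cannot show an excess over chance. Osr1 was 0 in DOX 19 and 5.20 to 6.01 in the other DOX libraries, a gap of 0.865 of the group's range. Meox1 was 0 in DMSO 20 and 6.195 to 6.93 in the other DMSO libraries, a gap of 0.894. Crym was 0 in DOX 19 and 2.80 to 3.06 in the other DOX libraries, a gap of 0.913, on 7 to 9 counts each. DOX 19 and DMSO 20 had counts for 13599 and 13243 genes, and the part of this in the 3 values was not tested.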

How the results depend on the processing

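No member that received a p was called under any alternative. The number with a p was 3 with at least 10 counts required in every library, 6 with edgeR, with limma-voom, with low gene detection as a covariate, without DMSO 20 and without both DMSO 20 and DOX 19, and 7 elsewhere. Over all genes, 25 were called, and the number was 0 with edgeR, with limma-voom and with edgeR without DMSO 20 and DOX 19, 16 with at least 10 counts required in every library, 48 without Cook's filter, 41 with low gene detection as a covariate, 51 without DMSO 20 and DOX 19, 40 at an adjusted p of at most 0.1, 43 with library sex as a covariate and 76 without DMSO 15 and DOX 21. The sex alternatives and the edgeR fit without DMSO 20 and DOX 19 were chosen after seeing the data. Leaving out 1 library gave 14 (without DMSO 3) to 75 calls (without DMSO 15), with 48 without DMSO 20 and 38 without DOX 21. The cause was not tested.

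No member difference passed the test, and their signs often turned. On leaving out 1 library, each of the 7 members changed sign in at least 1 fit on both scales, in 13 log2 fold changes and 16 TPM differences in all. In the other settings 7 log2 fold changes and 1 TPM difference turned. Six2 became 0.11 with limma-voom, 0.18 without DMSO 20 and DOX 19 and 0.15 in edgeR without them. Eya1 became 0.34 with limma-voom, 0.26 with low gene detection as a covariate, 0.68 without DMSO 20 and DOX 19 and 0.66 in edgeR without them. The TPM difference of Crym became 0.42 with a pseudocount of 0.01. Without 1 library, log2 fold changes ran from -1.08 to 0.0756 for Six2, -2.56 to 0.12 for Cited1, -0.49 to 0.87 for Eya1, -2.81 to 0.0667 for Osr1, -0.20 to 0.30 for Sall1, -0.25 to 0.62 for Meox1 and -1.50 to 1.17 for Crym. TPM differences ran from -1.10 to 0.61 for Six2, -2.28 to 0.80 for Cited1, -0.21 to 0.99 for Eya1, -1.82 to 0.21 for Osr1, -0.26 to 0.37 for Sall1, -0.70 to 1.05 for Meox1 and -0.47 to 0.56 for Crym. No paired analysis was run because the groups share no library number. Crym rests on 0 to 35 counts per library.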
